A study of Drosophila melanogaster with 6 samples.

Results

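The genes described here encode the nuclear subunits of oxidative phosphorylation, and they were followed in whole *Drosophila* larvae with and without knockdown of *Dctn1*, which encodes the p150 subunit of the dynactin complex. Members were all entries of the expression table whose symbol begins with ND-, with Sdh and a letter from A to D, with UQCR-, with COX and a digit, or with ATPsyn. This rule, which used no measured value, found 80 of the 13858 genes listed. Of these, 62 are the main subunits of the complexes and 18 are paralogues whose symbol is that of a main subunit with an added L, here called testis-like. Complex I had 34 main and 6 testis-like members, complex II had 4 and 2, complex III had 6 and 2, complex IV had 7 and 4, and complex V had 11 and 4.

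The libraries were made from whole female L3b larvae, at 96 h, that fed on grape agar with yeast. In 3 libraries (replicates 1, 2 and 3), *Act5C*-GAL4, a driver active throughout the body, switched on the UAS-*Dctn1*-RNAi transgene VDRC 3785. The other 3 libraries (replicates 2, 3 and 4) came from larvae that the labels call the Actin control, taken here as the driver without the transgene. All groups thus carry *Act5C*-GAL4, and 1 RNAi line represents the knockdown. Each library pooled 12 to 15 larvae. Levels are FPKM, which are fragments counted per unit of transcript length and of library size. Values of the 6 libraries are given as control replicates 2, 3 and 4 and then knockdown replicates 1, 2 and 3.

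Oxidative phosphorylation takes place in the inner mitochondrial membrane. Complex I (NADH dehydrogenase) and complex II (succinate dehydrogenase) pass electrons to ubiquinone, complex III (cytochrome bc1) passes them on to cytochrome c, and complex IV (cytochrome c oxidase) passes them to oxygen. Complexes I, III and IV pump protons, and complex V (ATP synthase) uses the proton gradient to make ATP. Subunits of complexes I, III, IV and V are encoded partly in the mitochondrial genome and partly in the nucleus, whereas all those of complex II are nuclear. In *Drosophila*, many of the nuclear subunits have a second copy that is used mainly in the male germline.

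The targeted gene was checked first. *Dctn1* was listed at 15.3, 15.2 and 12.5 FPKM in the control libraries against 7.33, 7.96 and 6.85 FPKM after knockdown. The groups did not overlap, and the log2 fold change was -0.94 ± 0.13 (SE, n = 3 per group, limma with Benjamini-Hochberg adjusted p = 0.00737). Summed FPKM per library lay between 94.2% and 107% of the mean. Control replicate 4 stood apart among nearly silent genes. Of 2655 genes under 1 FPKM in every library and at 0 in at least 1, it had 1170 above 0, against 744 to 862 in the others. Markers of muscle, gut and fat body were abundant in every library, as whole larvae contain these tissues. Summed FPKM of 17 muscle markers ran from 12315 to 19725 in controls and from 15464 to 20769 in the knockdown, with 1 lower at an adjusted p under 0.05. The 15 midgut markers summed to between 42760 and 65003 FPKM in controls and to between 33141 and 40144 FPKM in the knockdown, with 4 lower and 1 higher at an adjusted p under 0.05. Fat body markers (9 genes) summed to 21675 to 22658 FPKM in controls and 21817 to 26646 FPKM in the knockdown, with 1 higher by the same threshold. Neuronal markers (10 genes) summed to 61.96 to 74.2 FPKM and 75.99 to 92.6 FPKM. The neuronal sums did not overlap between groups, and 0 of these genes passed the threshold. Of the 9978 genes tested, 5.06% were higher and 1.65% lower by this threshold, and 33.5% had groups that did not overlap. In RNA from whole larvae, fewer cells of a type and less RNA per cell cannot be told apart, and the part of these tissue markers in the values below was not tested.

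The main subunits were abundant. Of the 62, 61 had a mean of at least 0.5 FPKM, the limit for testing, and their means ran from 35.6 FPKM for *ND-13A* to 1365 FPKM for *ATPsynC*, with a median of 108 FPKM. Together they made up 1.37%, 1.36% and 1.61% of the summed FPKM in controls and 1.40%, 1.61% and 1.46% in the knockdown. Control replicate 4 and knockdown replicate 2 were thus highest, and the groups overlapped. The coefficient of variation over the 6 libraries was 3.17% for the steadiest member, *ND-30*, and 18.8% for the most variable, *COX7A*, with a median of 9.26%.

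Levels differed by complex. Median FPKM over the main subunits was 73.5 in complex I, 83.5 in complex II, 138 in complex III, 337 in complex IV and 236 in complex V. All 7 complex IV subunits named COX lay between 212 FPKM (*COX7C*) and 503 FPKM (*COX6B*). Complex IV subunits that the rule does not match went beyond this range, with means of 164 FPKM for *cype* (COX6C) and 639 FPKM for *levy* (COX6A). Apart from *ND-MLRQ*, no tested complex I subunit was above 198 FPKM. *ND-MLRQ*, the orthologue of mammalian NDUFA4, was listed at 718, 765 and 946 FPKM in controls and 681, 786 and 687 FPKM in the knockdown. It was named as a complex I subunit, but NDUFA4 has since been assigned to complex IV in mammals. Its mean of 764 FPKM was above that of every subunit named COX.

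**Figure D1:**
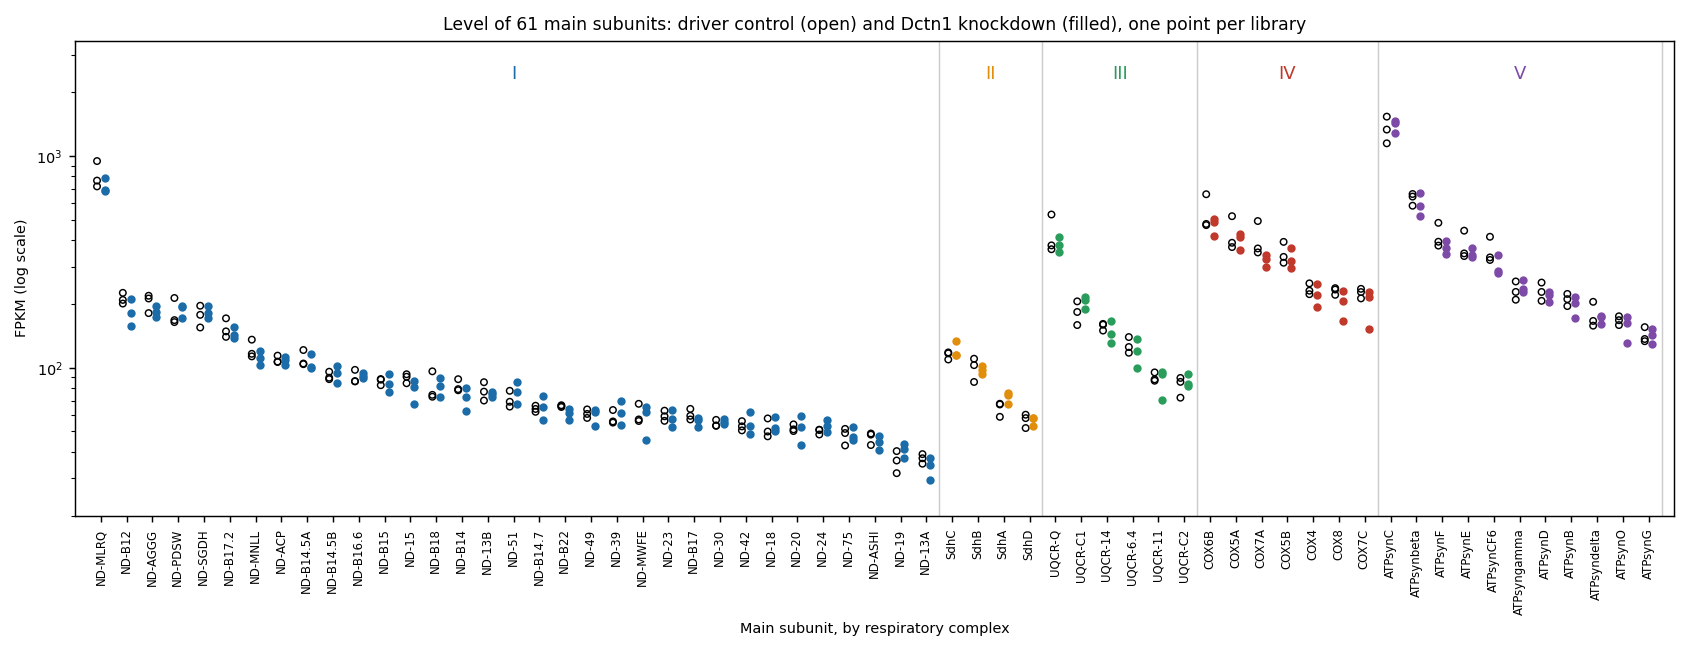
FPKM (log axis) of the 61 tested main subunits in each library, ordered by complex and by mean level; open points are the 3 control libraries and filled points the 3 knockdown libraries. Points of both conditions lie among each other for 59 of the 61 genes. The complex IV subunits named COX span a narrower range (212 to 503 FPKM) than the complex I subunits (35.6 to 764 FPKM).

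Within complex I, the 7 nuclear core subunits, which are conserved in bacteria (*ND-75*, *ND-51*, *ND-24*, *ND-49*, *ND-30*, *ND-20* and *ND-23*) lay close together. Their means ran from 48.1 FPKM for *ND-75* to 73.5 FPKM for *ND-51*. The 26 tested accessory subunits, which surround this core, ran from 35.6 to 764 FPKM. The lowest of them, *ND-13A* (orthologue of NDUFS6), was listed at 37.4, 35.2 and 39.1 FPKM in controls and 34.7, 37.5 and 29.6 FPKM in the knockdown. The groups overlapped for this gene.

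In complex V, *ATPsynC*, which encodes subunit c of the membrane rotor ring, was the most abundant member of all. It was listed at 1332, 1147 and 1533 FPKM in controls and 1282, 1462 and 1432 FPKM in the knockdown. All 3 knockdown values fell inside the control range. The gene lies on arm 3R from 31216145 to 31219630 on the minus strand (BDGP6.54). The next was *ATPsynbeta*, the catalytic beta subunit, with a mean of 610 FPKM, and the lowest was *ATPsynG*, a small membrane subunit, with 142 FPKM. In the assembled enzyme subunit c is present in many copies and beta in several.

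Complexes II and III showed smaller ranges than complexes I and V. In complex II the lowest and highest subunits were the membrane anchors *SdhD* (56.4 FPKM) and *SdhC* (118 FPKM). The catalytic flavoprotein *SdhA* and the iron-sulfur subunit *SdhB* lay between them at 68.5 and 98.5 FPKM. In complex III, *UQCR-Q*, a small subunit, reached 402 FPKM, against 84.4 FPKM for the core protein *UQCR-C2*.

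One main subunit was too low to be tested. *ND-B8*, the orthologue of NDUFA2, was listed at 0, 0.09 and 0.09 FPKM in controls and at 0 in all 3 knockdown libraries. It lies on arm 2L from 4454626 to 4455207 on the plus strand and overlaps *Gs1l*. NDUFA2 is part of complex I in all tissues, and why its orthologue was listed so low was not tested. The entry is thus reported only as listed at or near 0.

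The central comparison asked whether subunit transcripts differed between knockdown and control. No main subunit passed the test. By the study's thresholds (an adjusted p under 0.05 together with a change of more than 1 on the log2 scale in either direction), 0 of 61 were called, against 2.91% of the 9978 genes tested (1.82% higher and 1.08% lower). With the adjusted p alone the count was again 0, against 6.71% of all genes (5.06% higher and 1.65% lower), and at an unadjusted p under 0.05 it was 0, against 25.3%. The lowest unadjusted p was 0.0881 (limma, adjusted p = 0.268), for *COX7A*. Log2 fold changes ran from -0.31 to 0.17 and their standard errors from 0.11 to 0.17. Every 95% interval lay between -0.68 and 0.49, so that a 2-fold change in either direction was outside all of them, but smaller changes were not. By the study's thresholds *Dctn1* itself was not called, as its log2 fold change of -0.94 was under 1 in size.

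The fitted changes leaned to one side. Their median was -0.06, with 41 below 0 and 20 above, whereas the median over all tested genes was 0.16 and 25.8% of all genes were below 0. In all, 58 of the 61 lay below the median of all genes. The sign of the members' own values depended on the scaling, since all 61 were below 0 with median-of-ratios scaling, which moved the median of all genes to -0.01, and 45 with quantile normalization. Without control replicate 4, 30 of the 61 were below 0, and without knockdown replicate 3, 31. Leaving out control replicate 4 brought the gap between both medians from -0.22 to -0.09, and quantile normalization brought it to -0.08. Median-of-ratios scaling left it at -0.22. With the replicate number as a block the gap was -0.04, but that fit rests on replicates 2 and 3 of each group. Control replicate 4 and knockdown replicate 1 have no counterpart of the same number and add nothing to it. The gap grew to -0.32 without control replicate 3 and to -0.30 without knockdown replicate 2. It was below 0 under all 15 alternatives, and its size depended on these choices. The members' median was smaller than the spread of the library medians, whose SD around their group means was 0.10 on the log2 scale.

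**Figure D2:**
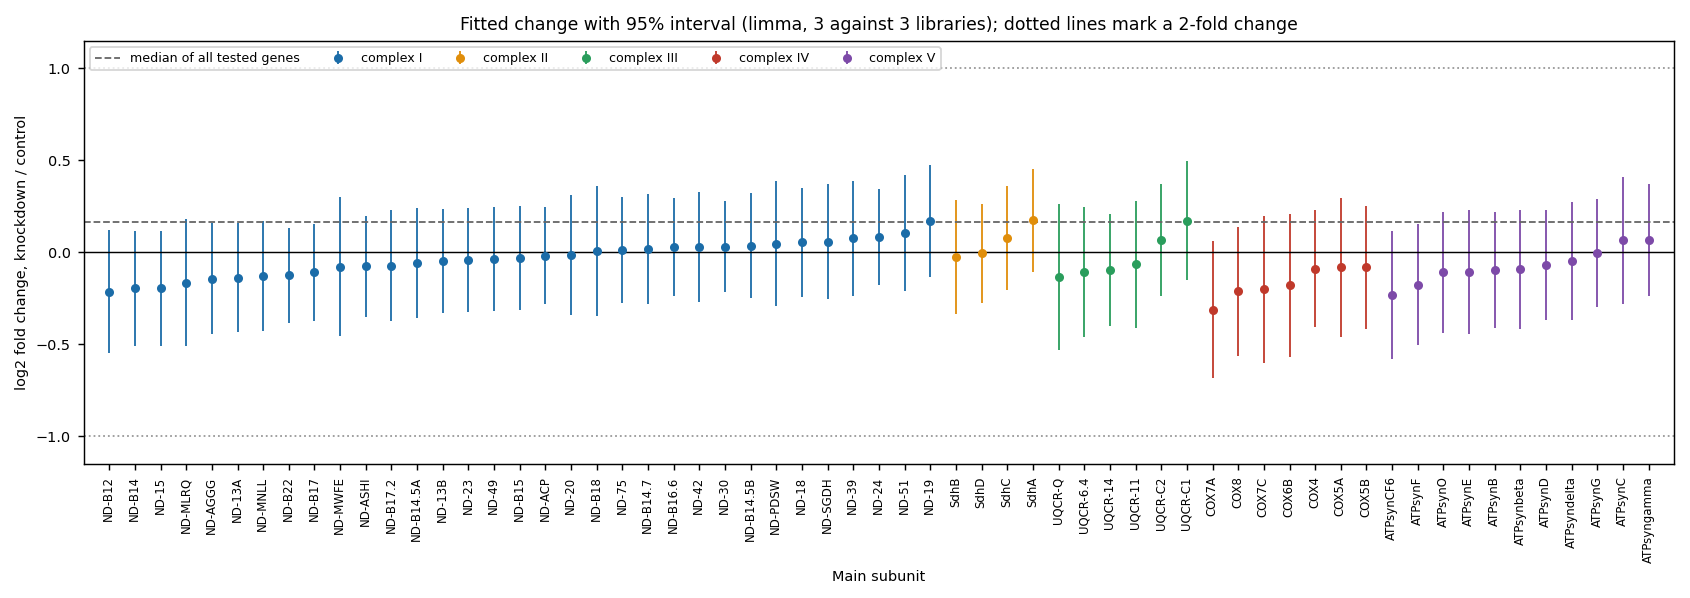
Fitted log2 fold change (knockdown over control, on the log2(FPKM + 0.1) scale) with its 95% interval for the 61 main subunits, ordered within each complex; the dashed line is the median of all tested genes (0.16) and dotted lines mark a 2-fold change. All intervals lie inside the dotted lines, and the 7 complex IV points are below 0 on this scale.

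Complex IV had the lowest values. All 7 of its subunits were fitted below 0, with a median of -0.18 and a range from -0.31 (*COX7A*) to -0.08 (*COX5B*), while 6 were below 0 with quantile normalization, 5 without control replicate 4, 6 without knockdown replicate 3 and 4 with the replicate number as a block. The median was -0.10 without control replicate 4 or knockdown replicate 1 and -0.08 without knockdown replicate 3. *COX7A* was listed at 366, 350 and 493 FPKM in controls and 298, 326 and 339 FPKM in the knockdown. The groups did not overlap, by a margin that was small beside the excess of control replicate 4. Its log2 fold change was -0.31 ± 0.16 (SE, n = 3 per group, limma adjusted p = 0.268), and -0.16 without control replicate 4. The exact two-sided permutation test gave p = 0.1, the smallest that 3 against 3 libraries allow.

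*COX6B*, a subunit on the intermembrane space side, showed the same high control library. It was listed at 477, 471 and 659 FPKM in controls and 417, 488 and 502 FPKM in the knockdown, and the groups overlapped. For *COX7C* the single low library was a knockdown one. Its values were 236, 228 and 213 FPKM in controls and 215, 229 and 152 FPKM in the knockdown, and without knockdown replicate 3 the groups still overlapped. *COX8*, a small membrane subunit, followed it with 238, 221 and 234 FPKM in controls and 206, 231 and 166 FPKM in the knockdown. *COX4* and *COX5A*, nuclear subunits bound to the catalytic core, had log2 fold changes of -0.09 ± 0.14 and -0.08 ± 0.16 (SE, n = 3 per group).

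Complex I was spread around 0, with a median of -0.03 and 19 of 33 fitted values below 0 (all 33 with median-of-ratios scaling and 25 with quantile normalization). The core subunits had a median of 0.01 and the accessory subunits one of -0.05. *ND-B12* (orthologue of NDUFB3) had the lowest value, -0.21 ± 0.15, from 209, 201 and 226 FPKM in controls and 182, 211 and 158 FPKM in the knockdown. *ND-19* (orthologue of NDUFA8) had the highest, 0.17 ± 0.13, from 36.5, 31.8 and 40.4 FPKM in controls and 37.3, 43.4 and 41.2 FPKM in the knockdown. The groups overlapped in both genes. *ND-B22* (orthologue of NDUFB9) was the only other main subunit whose groups did not overlap, with 66.5, 65.2 and 66 FPKM in controls and 61, 64 and 56.4 FPKM in the knockdown. It was named after its values had been seen. Its log2 fold change was -0.13 ± 0.11 (limma adjusted p = 0.51). With *COX7A*, this made 2 of 61 genes, or 3.28%, with separate groups, against 33.5% of all genes tested. Both were lower in the knockdown, as were 4.66% of all genes.

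Complex II, the complex with no mitochondrially encoded partner, had a median of 0.04, which was -0.14 with median-of-ratios scaling. Its catalytic subunit *SdhA* had the highest value of all members, 0.17 ± 0.12. It was listed at 67.6, 58.6 and 67.1 FPKM in controls and 67.4, 75.8 and 74.6 FPKM in the knockdown. Knockdown replicate 1 fell within the control range. *SdhB* was lowest in this complex at -0.02 ± 0.13.

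In complex III, the core proteins and the small subunits differed in sign. *UQCR-C1* and *UQCR-C2*, the core proteins on the matrix side, had log2 fold changes of 0.17 ± 0.14 and 0.07 ± 0.13, and the other 4 were below 0, down to -0.13 ± 0.17 for *UQCR-Q*. *UQCR-C1* was listed at 183, 159 and 206 FPKM in controls and 190, 215 and 210 FPKM in the knockdown. *UQCR-Q* was listed at 378, 363 and 529 FPKM in controls and 350, 380 and 413 FPKM in the knockdown. The groups overlapped in both, and these signs were not tested as a difference. With median-of-ratios scaling both core proteins were below 0 as well (-0.01 and -0.11), and without knockdown replicate 3 only 2 of the 4 small subunits were below 0.

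In complex V, 9 of 11 values were below 0, with a median of -0.09. All 11 were below 0 with median-of-ratios scaling and 8 with quantile normalization, and without control replicate 4 the count was 6. *ATPsynCF6*, a subunit of the peripheral stalk, was lowest at -0.23 ± 0.15, from 332, 323 and 415 FPKM in controls and 286, 341 and 281 FPKM in the knockdown. *ATPsyngamma*, the shaft of the rotor, was listed at 228, 209 and 255 FPKM in controls and 228, 259 and 236 FPKM in the knockdown. Its value of 0.07 ± 0.13 was similar in size to that of *ATPsynC*, 0.07 ± 0.15. The groups overlapped in all 11 genes of this complex.

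The libraries within a group differed in a way that the main subunits shared. Control replicate 4 was the highest of the 6 libraries for 29 of the 61 genes, knockdown replicate 2 for 21 and control replicate 2 for 11. Knockdown replicate 3 was the lowest for 31, control replicate 3 for 16, knockdown replicate 1 for 11, control replicate 2 for 2 and control replicate 4 for 1. Relative to the other 2 libraries of its group, control replicate 4 was higher for 47 genes, with a median of 0.13 on the log2 scale. Across all tested genes that median was -0.21. Knockdown replicate 3 was lower than its group for 47 genes, with a median of -0.14, against -0.06 across all tested genes.

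Subunits that stood highest in control replicate 4 were also those that held up best in knockdown replicate 3. *UQCR-Q*, *COX6B*, *COX7A* and *COX5A* were 0.51, 0.48, 0.46 and 0.45 above their group in control replicate 4 and 0.18, 0.15, 0.12 and 0.08 above it in knockdown replicate 3, all on the log2 scale. At the other end, *ND-MWFE* (orthologue of NDUFA1) was at -0.15 and -0.47, and *COX7C* at -0.12 and -0.54. *ND-MWFE* and *COX5A* were chosen for mention after seeing their values. Across the 61 genes, Pearson's r between both deviations was 0.76 and Spearman's rho was 0.73. Across the 9978 tested genes r was 0.06 for this pair of libraries. Shared deviations were not particular to the subunits, since over the 9 pairings of a control with a knockdown library r ran from -0.79 (control replicate 4 with knockdown replicate 1) to 0.76 for the subunits. For all tested genes it ran from -0.62 (control replicate 3 with knockdown replicate 2) to 0.63 (control replicate 3 with knockdown replicate 1). These are correlations across genes that share the same 6 libraries, and genes are not independent replicates. Of the 61 genes, 33 were up in control replicate 4 and down in knockdown replicate 3, 14 were up in both, 14 were down in both, and 0 were down in control replicate 4 and up in knockdown replicate 3.

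**Figure D3:**
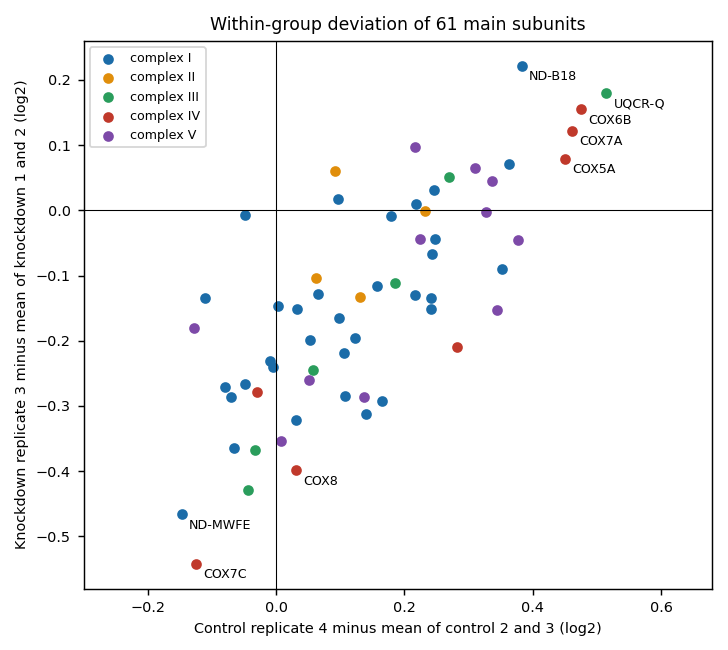
For each of the 61 main subunits, the log2 difference of control replicate 4 from the mean of the other 2 control libraries (horizontal) against that of knockdown replicate 3 from the mean of the other 2 knockdown libraries (vertical). The points rise together (r = 0.76), from *COX7C* and *ND-MWFE* at the lower left to *UQCR-Q* at the upper right, and the upper left quadrant is empty.

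Fitted changes also went with transcript length. Median annotated transcript lengths of the 61 genes ran from 422 to 2663 nt, and Spearman's rho between length and log2 fold change was 0.64 across these genes. It was 0.08 across 9918 tested genes with an annotated length. Of the 12 subunits over 1000 nt, 9 were fitted above 0, with a median of 0.07. Of the 49 shorter ones, 11 were above 0, with a median of -0.08. Among all tested genes the medians were 0.17 over 1000 nt (8022 genes) and 0.10 up to 1000 nt (1896 genes). Without the 12 longest subunits rho was 0.53, and within complexes I, III, IV and V it was 0.62, 0.54, 0.57 and 0.48. The long subunits include the core proteins *UQCR-C1*, *UQCR-C2*, *SdhA*, *ND-75* and *ND-51*, and the short ones most of the small membrane subunits. There were exceptions, such as the core subunits *ND-20* (909 nt) and *ND-23* (819 nt) and the membrane subunit *ATPsynC* (1439 nt). Length and place in the complex thus went together in part, and their shares were not tested. Abundance also moved with the fitted change, as rho between mean FPKM and log2 fold change was -0.42 across the 61 genes and -0.20 across all tested genes. Leaving out each library in turn gave values of rho for length from 0.53 to 0.66, and it was 0.52 with the replicate number as a block and 0.43 with estimated sample weights.

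**Figure D4:**
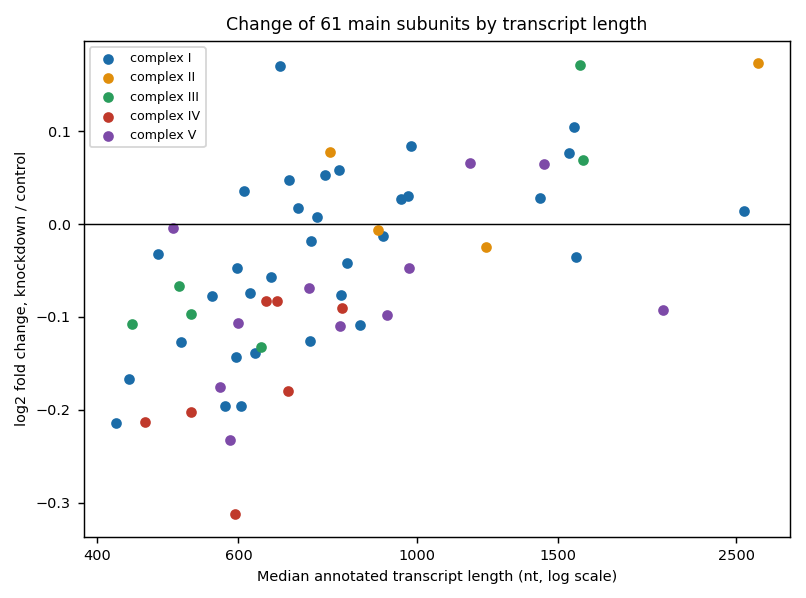
Log2 fold change (knockdown over control) of the 61 main subunits against median annotated transcript length (nt, log axis), coloured by complex. Most of the 49 genes up to 1000 nt lie below 0 and 9 of the 12 longer ones above it, within a span of -0.31 to 0.17.

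The testis-like paralogues were close to 0 in these female larvae. All 18 share the KEGG orthology entry of their main counterpart in the table, and the 17 distinct counterparts had means from 51.6 to 639 FPKM. Of the 18, 4 were listed at 0 in every library (*UQCR-14L*, *ND-B14.5AL*, *ND-51L2* and *ATPsynGL*) and 6 were above 0 in all 6 libraries. Only *ATPsynepsilonL* had a mean of at least 0.5 FPKM and only it and *UQCR-11L* reached 0.5 FPKM in any library. In the other 16 no library exceeded 0.48 FPKM. Where all 6 libraries were above 0, the main counterpart was between 203-fold (*UQCR-11*) and 1927-fold (*levy*) more abundant than its paralogue.

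*ATPsynepsilonL*, a paralogue of the epsilon subunit gene *sun* on arm 3R from 10121773 to 10122320 on the plus strand, was listed at 1.02, 2.09 and 1.02 FPKM in controls. In the knockdown it was listed at 1.6, 2.25 and 0.86 FPKM, and the groups overlapped. Its log2 fold change was 0.16 ± 0.40 (SE, n = 3 per group, limma adjusted p = 0.829). *sun* itself was listed at 421, 437 and 571 FPKM in controls and 396, 444 and 398 FPKM in the knockdown.

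*UQCR-11L*, a paralogue of the hinge subunit gene *UQCR-11*, was listed at 0.35, 0.27 and 0.55 FPKM in controls and 0.53, 0.27 and 0.64 FPKM in the knockdown. It lies on arm 2R from 8677219 to 8677661 inside *Acsl*, on the same strand. *UQCR-11* was listed at 86.8, 95.04 and 88.1 FPKM in controls and 93.9, 95.8 and 70.4 FPKM in the knockdown. Neither gene separated the groups.

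*COX6AL* and *ND-51L1* were the testis-like members whose groups did not overlap, 2 of 18, and both were higher in the knockdown. Among the tested genes 28.8% were likewise separate and higher. Only 1 of the 18 was among those, so that this share is no measure for genes this low. *COX6AL* and *ND-51L1* were chosen for mention after seeing their values, and both were too low to be tested. *COX6AL* was listed at 0.2, 0.14 and 0.34 FPKM in controls and 0.41, 0.42 and 0.48 FPKM in the knockdown. *ND-51L1* was listed at 0.03, 0.07 and 0.17 FPKM in controls and 0.27, 0.23 and 0.2 FPKM in the knockdown. The exact two-sided permutation p was 0.1 for each, the smallest possible with n = 3 per group. Both are single-exon genes inside a longer gene on the same strand, *COX6AL* in *Cyp4aa1* and *ND-51L1* in *Smurf*, and reads from the host transcript cannot be told apart from their own here.

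**Figure D5:**
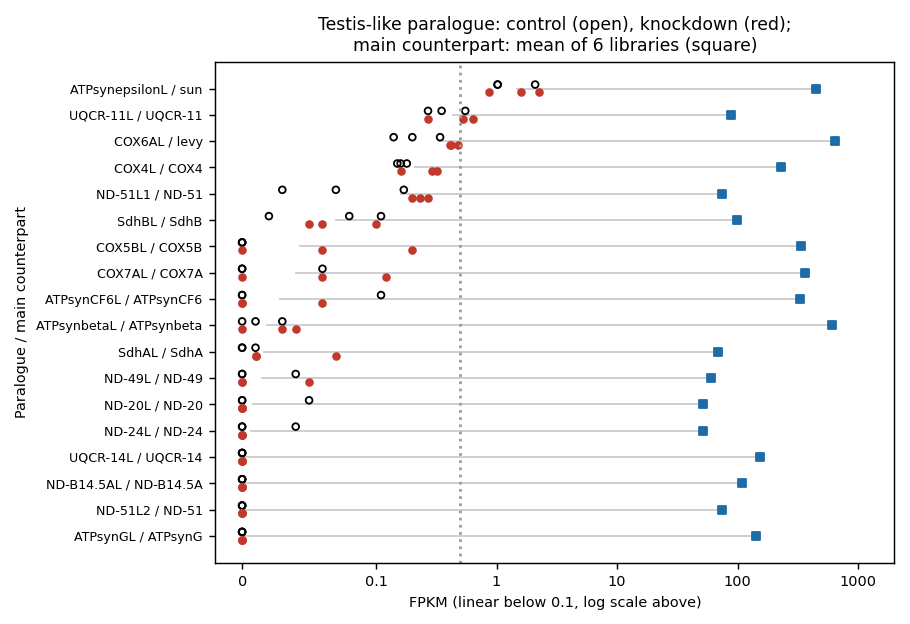
FPKM of the 18 testis-like paralogues in each library (open, control; red, knockdown) and the 6-library mean of the main counterpart (square), on an axis that is linear below 0.1 and logarithmic above; the dotted line is the limit of 0.5 FPKM for testing. Only *ATPsynepsilonL* and *UQCR-11L* reach the line, while every counterpart lies between 51.6 and 639 FPKM.

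Exon number and enclosure in another gene set the paralogues apart from the main subunits. In the BDGP6.54 annotation, 6 of 18 testis-like genes had a single exon, against 0 of 62 main subunits. Another protein-coding gene enclosed 9 of the 18, of which 6 lay on its strand, against 2 of 62 main subunits. These 2 were *ND-MNLL*, which shares its span with *CG45089*, and *UQCR-14*, which lies in *CG32576* on the other strand. Overlap of any extent with another protein-coding gene was similarly common in both classes, at 32 of 62 main subunits and 9 of 18 paralogues. *COX5BL* begins 122 bp after the end of *COX5B* on the same strand, and *COX7AL* lies 2625 bp from *COX7A* on the other strand, with both starts facing each other. Of the main subunits 12 lie on the X chromosome, 12 on 2L, 11 on 2R, 12 on 3L, 13 on 3R and 2 on chromosome 4. Of the paralogues 1 lies on the X, 2 on 2L and 5 each on 2R, 3L and 3R.

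Testis markers were read beside these paralogues. Of 24 genes of male germ cells in the table, 4 were at 0 in every library, among them *betaTub85D*, the testis beta tubulin. Their summed FPKM was 4.61, 6.62 and 6.47 in controls and 8.99, 6.75 and 6.14 in the knockdown. The number above 0 was 11, 10 and 20 in controls and 12, 13 and 11 in the knockdown. Control replicate 4 stood out, as it did among nearly silent genes in general (1170 of 2655 above 0, against 744 to 862 in the others). Of the markers, 5 were above 0 in this library alone. The same held for 2 paralogues, *ND-20L* (0.05 FPKM) and *ND-24L* (0.04 FPKM). The number of paralogues above 0 was 7, 8 and 11 in controls and 10, 9 and 10 in the knockdown. Of the 3 markers that could be tested, *mia*, which encodes a testis TAF protein, was higher in the knockdown (log2 fold change 0.61 ± 0.15, SE, n = 3 per group, limma adjusted p = 0.0481). Its adjusted p was 0.0809 to 0.18 when any 1 of the 6 libraries was left out.

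Other subunits carry names that the rule does not match. *RFeSP* and *Cyt-c1*, the Rieske protein and cytochrome c1 of complex III, had log2 fold changes of -0.01 ± 0.14 and -0.03 ± 0.16 (SE, n = 3 per group). In complex IV, *levy* (COX6A) and *cype* (COX6C) had -0.17 ± 0.17 and -0.01 ± 0.16. In complex V, *blw* (alpha) and *sun* (epsilon) had -0.07 ± 0.15 and -0.20 ± 0.15. None of these passed the test. *levy* shared the profile of *COX6B*, with 601, 612 and 822 FPKM in controls and 523, 660 and 615 FPKM in the knockdown. Control replicate 4 was again the highest library. *Cyt-c-p*, the somatic cytochrome c, was listed at 156, 167 and 224 FPKM in controls and 186, 257 and 224 FPKM in the knockdown, with a log2 fold change of 0.29 ± 0.19 (limma adjusted p = 0.36). *Cyt-c-d*, the form used in the male germline, was at most 0.25 FPKM.

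Mitochondrially encoded subunits had no entry under their usual symbols. Among 102 loci that the sequencing centre had added, 9 were annotated in the table as matches to mitochondrial proteins. The most abundant, a cytochrome b match, was listed at 35152, 42778 and 44043 FPKM in controls and 43390, 45652 and 36519 FPKM in the knockdown, and its log2 fold change was 0.04 ± 0.16. A match to cytochrome c oxidase subunit I was listed at 4308, 5664 and 5709 FPKM in controls and 5059, 6185 and 5383 FPKM in the knockdown, with a log2 fold change of 0.09 ± 0.16. The groups overlapped at both.

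Related pathways were compared through lists of genes chosen for their role. The 8 listed assembly factors that had an entry, which help to build the complexes and are not part of them, had a median log2 fold change of 0.16, equal to that of all tested genes. One of them, *sicily*, a complex I assembly factor, was listed at 4.68, 4.74 and 4.08 FPKM in controls and 6.93, 6.41 and 6.67 FPKM in the knockdown. It rose by 0.56 ± 0.13 on the log2 scale (SE, n = 3 per group, limma adjusted p = 0.0409) and its groups did not overlap. The adjusted p was over 0.05 when any 1 of the 6 libraries was left out, at 0.069 to 0.158. Enzymes of the tricarboxylic acid cycle (18 tested, median 0.13), carriers of nucleotides and phosphate (8 tested, median 0.16) and genes for mitochondrial DNA upkeep and biogenesis (14 tested, median 0.23) had 0 calls in each. The cycle list also held pyruvate enzymes such as *PCB* and *muc*. The carrier list also held *porin* and relatives of uncoupling proteins such as *Ucp4A*. The medians of these lists lay near that of all genes, and that of the main subunits below it. Mitochondrial ribosomal proteins (73 tested) had a median of 0.13 with 1 call (*mRpL1*, 0.51 ± 0.12, named after its value was seen, with an adjusted p of 0.0637 to 0.167 when any 1 library was left out), and cytosolic ribosomal proteins (85 tested) a median of 0.14 with 0 calls. Calls here used the adjusted p alone, which 6.71% of all tested genes passed.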

How the data were processed

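Poly(A) RNA was read by the authors as 100 bp pairs, which were filtered (SOAPnuke), mapped (HISAT2) and quantified (RSEM). The values that they deposited are FPKM per gene and library. The sample labels also name StringTie and Cufflinks, and an Illumina instrument in place of the DNBseq platform. Ages are 96 h after egg laying in the methods and after hatching in the labels. Tool versions and the genome build are not given in the sources used here. The deposited FPKM hold no counts. Low values gave no common step between libraries, as 3 to 11 of 9 to 47 genes per pair lay within 5% of a shared ratio. The depth is therefore unknown, no counting interval could be given, and the count test of the study was replaced.

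Log2(FPKM + 0.1) was fitted with limma 3.58.1 in R 4.3.3 on condition alone, with trended and robust variance. The 9978 genes whose FPKM averaged 0.5 or more were fitted, and p-values were adjusted by Benjamini-Hochberg over all of them. Calls used the thresholds given in the report, or the adjusted p alone. Fold changes on this scale understate those of low genes. P-values measure the spread between libraries of separate larval pools. The fit was tested on simulated data. Single genes were also compared by exact permutation tests. Positions come from BDGP6.54, to which all 80 members matched.

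Members, lists and tests were chosen with earlier results of these data known. Named were the members of each complex with the highest and lowest mean FPKM and fold change, paralogues above 0.5 FPKM in any library with their counterparts, subunits under other names and *Dctn1*. A few others stand where the text describes their position in a list or a plot. No sequences were used here. In all, 15 alternatives were run. They used a pseudocount of 1 or 0.01, no filter or a limit of 5 on the mean, and scaling by median-of-ratios or by quantiles. Others used an untrended variance without robustness, weighted samples, a block for the replicate number, or 5 of the 6 libraries at a time. In the block, control replicate 4 and knockdown replicate 1 have no counterpart, so the fitted change rests on replicates 2 and 3.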

Additional observations from a re-analysis of the deposited data

How the results depend on the processing

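Calls among the 61 main subunits stayed at 0 by adjusted p under all 15 alternatives, and at an unadjusted p under 0.05 they numbered 5 under median-of-ratios scaling, 1 with the replicate block and 1 without control replicate 3. Without a filter 2 paralogues, *COX6AL* and *ND-51L1*, had such a p. Median-of-ratios scaling shifted the median of all tested genes from 0.16 to -0.01. With it, the median log2 fold change became -0.24 for the 61 subunits and -0.21, -0.14, -0.26, -0.36 and -0.27 for complexes I to V. Leaving out 1 library at a time moved the median of the 61 between -0.12 and 0.00. The gap to the median of all genes was -0.22 in the main analysis and below 0 under all 15 alternatives. It was -0.32 without control replicate 3, -0.30 without knockdown replicate 2 and -0.09 without control replicate 4. With median-of-ratios scaling it was -0.22, with quantile normalization -0.08 and with the replicate block -0.04. Replicate numbers 2 and 3 occur in both groups, and deviations of the same-numbered libraries correlated across all tested genes at 0.40 and 0.14. With only 2 shared numbers they were not taken as pairs. With the replicate number as a block, the fitted change rests on replicates 2 and 3 of each group alone, and the median of the 61 subunits was 0.03. Among the 5 pathway lists, the 1 call (*sicily*) became 0 with median-of-ratios scaling, quantile normalization, the replicate block and each library left out (0 to 0), and 5 genes were called with sample weights (*sicily*, *l(1)G0255*, *ewg*, *Ets97D* and *mtRNApol*). *Dctn1* kept its sign and an adjusted p under 0.05 under all 15 alternatives, between -1.04 and -0.89 with 1 library left out. Of the 29 named genes, the sign of the fitted change differed for 8 with median-of-ratios scaling, 8 without control replicate 4 and 10 with the replicate block. With 3 libraries per group and unknown depth, changes that lie inside the intervals remain possible.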

Other observations

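Several entries under CG numbers carry the name of an oxidative phosphorylation subunit in the BDGP6.54 annotation, and they were noticed after the values had been seen. *CG7630*, now *COX7B*, was listed at 498, 451 and 578 FPKM in controls and 456, 527 and 421 FPKM in the knockdown, and control replicate 4 was again the highest library. Its log2 fold change was -0.12 ± 0.15 (SE, n = 3 per group). *CG31644* (*COX6CL*), *CG6629* (*SdhCL*) and *CG43206* (*UQCR-6.4L*) were listed at 0 in every library. *CG34172* (*COX7AL2*) and *CG14077* (*COX6AL2*) reached at most 0.19 and 0.03 FPKM. *CG44296* (*COX7CL*) was listed at 0.4 FPKM in knockdown replicate 1, at 0.1 FPKM in control replicate 4 and at 0 in the other 4 libraries.

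*CG9065* (*Cox17*), which encodes a copper chaperone for complex IV, was listed at 31.9, 28.8 and 37.3 FPKM in controls and 41.1, 47.4 and 53.3 FPKM in the knockdown. The groups did not overlap, and 28.8% of all tested genes were likewise separate and higher in the knockdown. Its log2 fold change was 0.53 ± 0.15 (SE, n = 3 per group, limma adjusted p = 0.0753), so that it did not pass the test. It was chosen for mention after its values had been seen. The 7 subunits named COX, which did not pass the test either, had a median of -0.18.

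*mtDNA-helicase* and *mtRNApol*, the helicase and the RNA polymerase of mitochondrial DNA, were higher in every knockdown library than in any control. The same held for 28.8% of all tested genes. Both were picked, after their values had been seen, from the 14 tested genes for mitochondrial DNA upkeep and biogenesis. Others of these genes, such as *srl*, also had separate groups, while the groups of *TFAM*, *mtSSB* and *tam* overlapped. *mtDNA-helicase* was listed at 2.25, 1.76 and 1.48 FPKM in controls and 3.04, 2.96 and 2.81 FPKM in the knockdown, and *mtRNApol* at 2.71, 2.46 and 2.13 FPKM and 3.67, 3.89 and 3.19 FPKM. Neither passed the test (limma adjusted p = 0.0685 and 0.085).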
